A study of Sus scrofa with 12 samples.

Results

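The miR-193 and miR-365 entries were examined in small RNA libraries from pig testis. All listed miRNAs named miR-193 or miR-365, with or without the pig prefix and with any letter from a to c, were taken by name, which gave 8 of 1452 entries. The libraries came from testes of 30-days-old Hezuo boars (Ha), 120-days-old Hezuo boars (Hb), 30-days-old Landrace boars (La) and 120-days-old Landrace boars (Lb), with 3 libraries in each group and no treatment named in the labels. The Hezuo (HZ) pig is an early-maturing native breed, and the Landrace (LC) pig served as the later-maturing control. According to the methods, total RNA came from pooled samples. It is not clear if each library is 1 boar, and p-values measure only the spread between these libraries. The set was selected on the TPM values and counts of ssc-miR-365-3p in Hb and Lb, where it was already known to be higher in Lb. The Hb vs. Lb values of all members are therefore given as a description with no test. So are the age differences of ssc-miR-365-3p and of its near-identical entry miR-365-y, and the interaction of age and breed.

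miR-193 and miR-365 are processed from neighbouring hairpins that mammals carry at separate loci, one with miR-193a and one with miR-193b. Each hairpin can yield a mature miRNA from its 5' arm (5p) and from its 3' arm (3p), and the more abundant arm is usually taken as the one that guides repression. In mammals the miR-365 hairpins at both loci give the same 3p sequence but different 5p sequences, so a level of the 3p arm sums over both loci. The miR-193 family is known for repressing cell-cycle and growth-factor receptor genes such as CCND1 and KIT, and the miR-193b and miR-365 pair has been studied in brown fat differentiation. A miRNA recognises its targets mainly through the seed, here bases 2 to 8.

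The mature sequences deposited for the 8 members are printed because their 3p arms fall into 2 seed groups while their 5p arms do not share a seed. The seed is in capitals and T stands for U. The 3p entries of miR-365 share 1 seed:
ssc-miR-365-3p: tAATGCCCctaaaaatccttat
miR-365-y: tAATGCCCctaaaaatccttaaa
The 3p entries of miR-193 share another:
ssc-miR-193a-3p: aACTGGCCtacaaagtcccagt
miR-193-y: aACTGGCCcacaaagtcccgct
The 5p entries each have a seed of their own:
ssc-miR-365-5p: gAGGGACTttcaggggcagctgt
miR-365-x: aGGGACTTttgggggcagatgt
ssc-miR-193a-5p: tGGGTCTTtgcgggcgagatga
miR-193-x: cGGGGTTTtgagggcgagatga

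No entry outside the set carried any of these seeds or lay within 3 edits of a member. The entries ssc-miR-365-3p and miR-365-y share their first 21 bases and lie 2 edits apart, so tags could be split between them. The entries ssc-miR-193a-3p and miR-193-y lie 3 edits apart. The entry miR-193-x shares its last 11 bases with ssc-miR-193a-5p. By name, the RefSeq annotation of Sscrofa11.1 holds MIR365-1 on chromosome 3 from 28908137 to 28908216, within the bounds of the lncRNA gene LOC110259927. MIR365-2 lies on chromosome 12 from 43324725 to 43324804 and MIR193A on the same chromosome from 43336969 to 43337048, with 12164 bases between them, and neither lies inside another annotated gene. The entries without a pig prefix (miR-193-x, miR-193-y, miR-365-x and miR-365-y) carry no letter and were not assigned to a hairpin.

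Between 6520197 and 16874633 counts per library fell on listed miRNAs. By the library totals behind the deposited TPM, 3 counts, taken as the floor, equal 0.158 to 0.404 TPM (counting error only). The testis label was checked with miR-202, an abundant gonadal miRNA, whose 5 entries summed to 9608.4 to 24404.6 TPM. The 7 entries of miR-34b, miR-34c and miR-449, which are known from meiotic and haploid germ cells, summed to 20.2 to 92.4 TPM at 30 days and to 3004.4 to 15525.1 TPM at 120 days. Hb replicate 2 had the lowest TMM scaling factor, 0.6942, and the lowest sums of both lists at its age. In whole testis, fewer cells of a type and less RNA per cell cannot be told apart.

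The 2 abundant members were ssc-miR-365-3p and miR-193-y. Their means over the 12 libraries were 334.2 and 263.9 TPM. ssc-miR-365-3p made up 85.1 to 98.8% of the summed miR-365 entries of a library, and miR-193-y made up 57.8 to 88.2% of the summed miR-193 entries. The other 6 members had means between 0.758 TPM (ssc-miR-365-5p) and 48.4 TPM (ssc-miR-193a-5p). For miR-365, the 3p arm was thus the major arm in each library. For miR-193a the order was the opposite, since ssc-miR-193a-5p exceeded ssc-miR-193a-3p in all 12 libraries.

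**Figure D1:**
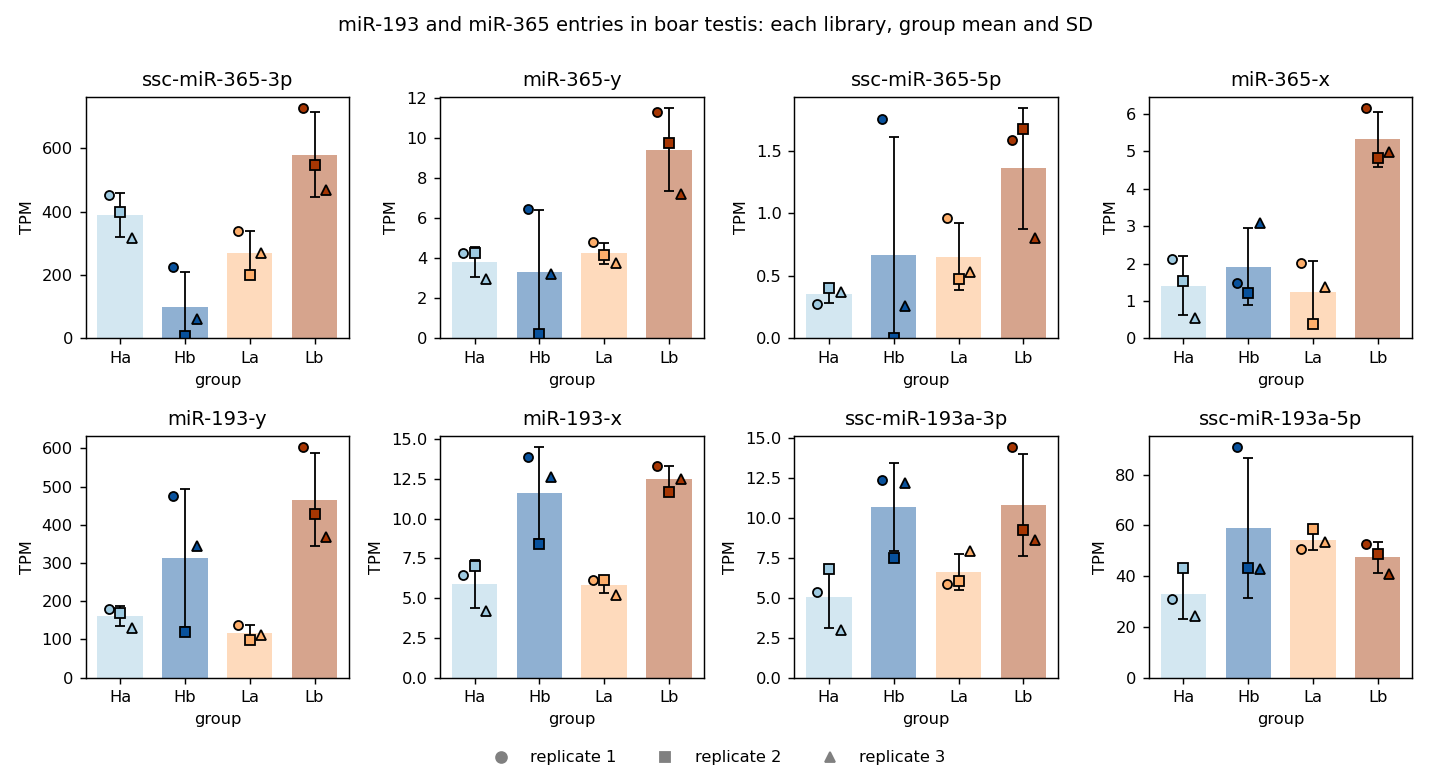
TPM (y axis) of each of the 8 members by group (x axis), with bars for the group mean, error bars for the SD (n = 3; cut at 0) and a marker for each library. ssc-miR-365-3p was at 8.07 to 223.7 TPM in Hb and at 199.7 TPM or more in the other groups, whereas miR-193-y had its lowest group means in Ha and La.

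ssc-miR-365-3p was the member with the widest range. In HZ boars it was counted at 453.1, 397.6 and 316.2 TPM in Ha replicates 1, 2 and 3 and at 223.7, 8.07 and 61.1 TPM in Hb. In LC boars it was counted at 339.5, 199.7 and 270.4 TPM in La and at 727.0, 546.1 and 467.5 TPM in Lb. Each Hb library lay below each Ha library, and each Lb library above each La library, so the age difference had opposite directions in the 2 breeds. The group means (SD, n = 3), from the highest, were Lb 580.2 ± 133.1 TPM, Ha 389.0 ± 68.9 TPM, La 269.9 ± 69.9 TPM and Hb 97.6 ± 112.4 TPM. Of the neighbours in this order, Ha overlapped with La and La with Hb, whereas Lb did not overlap with Ha. The SD of Hb exceeded its mean because Hb replicate 2 held 74 counts and Hb replicate 1 held 1661.

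The fitted log2 fold change of ssc-miR-365-3p was -2.12 (standard error 0.636) between Ha and Hb. Between La and Lb it was 0.92 (standard error 0.18). Without Hb replicate 2 the difference in Ha vs. Hb was -1.59, and without Hb replicate 1 it was -3.24. Between the breeds at 30 days, where the libraries that chose this miRNA took no part, its log2 fold change was -0.44 (standard error 0.162). This did not pass the fold threshold, and the Benjamini-Hochberg adjusted p of the edgeR quasi-likelihood fit was 0.0973.

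miR-365-y, the rarer 3p entry of miR-365, was counted at 4.24, 4.26 and 2.96 TPM in Ha, 6.47, 0.218 and 3.22 TPM in Hb, 4.8, 4.17 and 3.74 TPM in La and 11.3, 9.75 and 7.21 TPM in Lb. Hb replicate 2 held 2 counts of it, under the floor, and the other Hb libraries lay above or inside the range of Ha. Each Lb library lay above each La library, at a difference of 0.98 (log2; standard error 0.246), just under the fold threshold. The age differences of miR-365-y are given as a description, since tags could be split between it and ssc-miR-365-3p. In Ha vs. Hb the log2 fold change of miR-365-y was -0.28 (standard error 0.607), which turned to 0.24 without Hb replicate 2.

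The 5p entries of miR-365 were rare. miR-365-x held 23, 15 and 6 counts in Ha, 11, 11 and 24 in Hb, 23, 4 and 26 in La and 93, 46 and 56 in Lb. The Lb libraries stood above all others, and the remaining 3 groups overlapped. From La to Lb it rose by 1.88 on the log2 scale (standard error 0.413; edgeR adjusted p = 0.00318), whereas Hb lay 0.57 above Ha (standard error 0.562; edgeR adjusted p = 0.444). The latter value was 0.09 without Hb replicate 3 and 1.01 without Ha replicate 1. ssc-miR-365-5p held 3, 4 and 4 counts in Ha, 13, 0 and 2 in Hb, 11, 5 and 10 in La and 24, 16 and 9 in Lb. Its age differences were not detectable at this depth, the edgeR adjusted p being 0.53 in HZ boars and 0.141 in LC boars. The 0 in Hb replicate 2 allows up to 3 counts.

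miR-193-y, the abundant 3p entry of miR-193, was counted at 180.8, 169.5 and 131.1 TPM in Ha, 475.8, 118.9 and 345.1 TPM in Hb, 138.7, 97.2 and 111.0 TPM in La and 602.7, 428.8 and 367.2 TPM in Lb. Each Lb library lay above each La library, while in Hb replicates 1 and 3 lay above Ha and replicate 2 lay below it. From La to Lb it rose by 1.83 on the log2 scale (standard error 0.17; edgeR adjusted p = 3e-06), and the value stayed between 1.64 and 2.01 when each library was left out. In Ha vs. Hb its log2 fold change was 0.97 (standard error 0.324; edgeR adjusted p = 0.0327), just under the fold threshold. Without Hb replicate 2 it was 1.28.

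miR-193-x, the 5p entry of the same kind, was counted at 6.45, 7.0 and 4.17 TPM in Ha, 13.9, 8.4 and 12.6 TPM in Hb, 6.11, 6.16 and 5.22 TPM in La and 13.3, 11.6 and 12.5 TPM in Lb. In both breeds each library at 120 days lay above each at 30 days. It rose from Ha to Hb by 1.08 on the log2 scale (standard error 0.35; edgeR adjusted p = 0.0285). This call was lost without Ha replicate 3 (0.88) and with scaling by library size (0.99). From La to Lb the difference was 0.92 (standard error 0.205; edgeR adjusted p = 0.00353), under the fold threshold.

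ssc-miR-193a-3p was counted at 5.35, 6.8 and 2.96 TPM in Ha, 12.4, 7.52 and 12.2 TPM in Hb, 5.85, 6.07 and 7.91 TPM in La and 14.4, 9.23 and 8.64 TPM in Lb. As for miR-193-x, the libraries at 120 days lay above those at 30 days in both breeds. It rose from Ha to Hb by 1.18 on the log2 scale (standard error 0.384; edgeR adjusted p = 0.0288), a call lost without Ha replicate 3 (0.91). From La to Lb the difference was 0.5 (standard error 0.254; edgeR adjusted p = 0.138).

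ssc-miR-193a-5p was counted at 31.2, 43.3 and 24.3 TPM in Ha, 90.8, 43.1 and 42.9 TPM in Hb, 50.8, 58.8 and 53.7 TPM in La and 52.8, 48.7 and 40.8 TPM in Lb. The ages overlapped in both breeds, and each La library lay above each Ha library. La lay 0.81 above Ha on the log2 scale (standard error 0.191; edgeR adjusted p = 0.0139), under the fold threshold, and 1.06 without Ha replicate 2. With age the difference was 0.9 in HZ boars (standard error 0.33; edgeR adjusted p = 0.0489) and -0.38 in LC boars (standard error 0.152; edgeR adjusted p = 0.0646). The difference between these age effects was -1.34 on the log2 scale (standard error 0.362) in the edgeR interaction over all 12 libraries. The interaction holds the difference between Hb and Lb and is given as a description. In it ssc-miR-193a-5p and ssc-miR-365-3p, 2 of the 8 members, were past the thresholds of the study, beside 17.1% of all miRNAs. With the adjusted p in place of p, 0 of the 8 members were, and nothing is read from these counts.

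**Figure D2:**
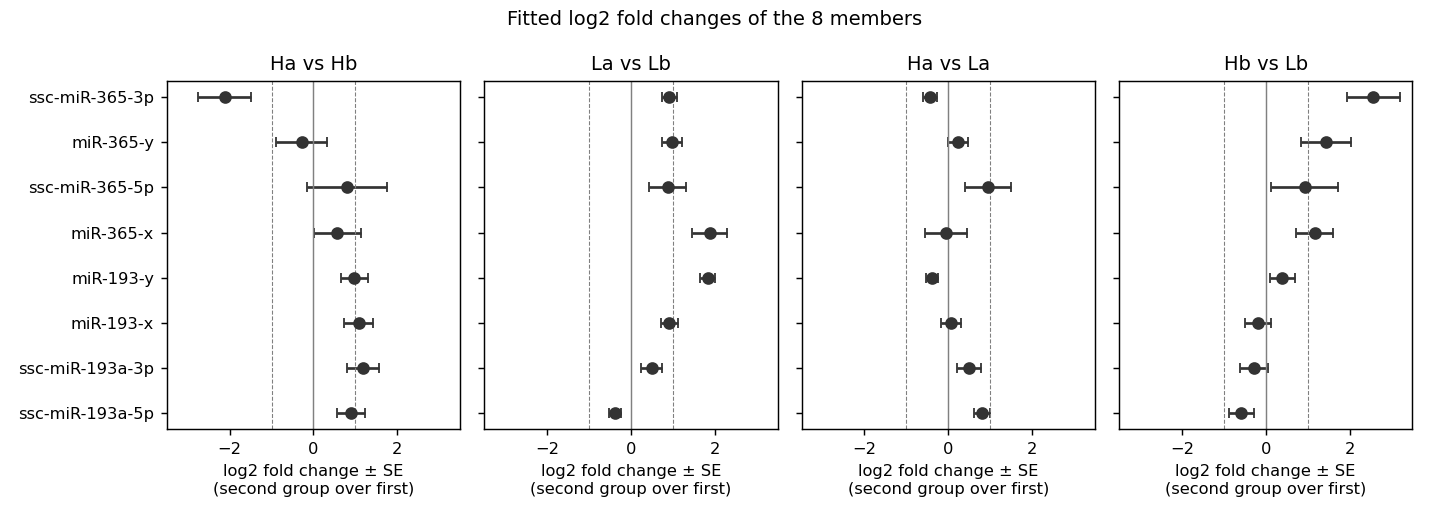
Fitted log2 fold change (x axis; second group over first) of each member (y axis) in the 4 comparisons, with bars for the standard error; dashed lines mark the fold threshold. In Ha vs. Hb ssc-miR-365-3p lies at -2.12 while the 4 miR-193 entries lie between 0.9 and 1.18, and in La vs. Lb only ssc-miR-193a-5p lies below 0.

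The study called a miRNA where the fold was past 1 on the log2 scale in either direction with p under 0.05 before adjustment. By this rule 3 of the 8 members were called in Ha vs. Hb, where 39.6% of all tested miRNAs were called. They were miR-193-x and ssc-miR-193a-3p, which were higher in Hb, and ssc-miR-365-3p, which was lower and is given as a description. In La vs. Lb 2 of the 8 were called, miR-193-y and miR-365-x, both higher in Lb, beside 32.1% of all miRNAs. The number in La vs. Lb was 5 without La replicate 1 or without Lb replicate 3, and 6 with scaling by library size. In Ha vs. Hb it was 1 without Ha replicate 3 and 5 without Ha replicate 2. The count was 0 of 8 in Ha vs. La, where 9.47% of all miRNAs were. At an unadjusted p under 0.05 alone, 3 members passed in Ha vs. La, namely ssc-miR-193a-5p, miR-193-y and ssc-miR-365-3p, beside 24.7% of all miRNAs. With all 12 libraries in 1 edgeR fit, only ssc-miR-193a-5p of these 3 passed. With DESeq2, none was called in that comparison either. The median difference of the members with age was 0.85 in HZ boars and 0.92 in LC boars on the log2 scale, beside 0.32 over all miRNAs in each breed. The member medians hold ssc-miR-365-3p and are a description. With rare miRNAs removed by filterByExpr, the median over all miRNAs was 0.05 in HZ boars and 0.08 in LC boars. Counted by libraries that did not overlap in TPM, 6 of the 8 members were higher in Lb than in La, beside 36.3% of all miRNAs. The 6 include ssc-miR-365-3p and miR-365-y, for which this is a description. In Hb 2 members lay above Ha, beside 23.0% of all miRNAs. The member that lay below, beside 20.7%, was ssc-miR-365-3p itself, and nothing is read from it. In La 2 members, ssc-miR-365-5p and ssc-miR-193a-5p, lay above Ha, beside 10.7%. The former held 3, 4 and 4 counts in Ha, at or near the floor, and 5 in La replicate 2.

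Whether miR-365 and miR-193 entries moved together was read from ratios of counts within a library, which do not depend on how libraries are scaled. The first ratio sets the abundant 3p entries of the families side by side. Since miR-193-y was not assigned to a hairpin, it is not shown to be a genomic neighbour of miR-365. ssc-miR-365-3p had 2.51, 2.35 and 2.41 counts for each count of miR-193-y in Ha and 2.45, 2.06 and 2.44 in La. At 120 days the ratio was 0.47, 0.0679 and 0.177 in Hb and 1.21, 1.27 and 1.27 in Lb. The ratio was close in all 6 libraries at 30 days, lower in each library at 120 days, and lowest in Hb. The Hb and Lb values of ssc-miR-365-3p chose the set, so the ratios that hold it at 120 days are a description.

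As log2 ratios, with 0.5 added to each count, the means of ssc-miR-365-3p over miR-193-y (SD, n = 3) were 1.28 ± 0.0479 in Ha and 1.2 ± 0.143 in La at 30 days. At 120 days they were -2.49 ± 1.39 in Hb and 0.32 ± 0.0451 in Lb. The difference between the ages was -3.76 in HZ boars and -0.88 in LC boars. In LC boars both miRNAs were higher at 120 days, and miR-193-y by the larger factor. In HZ boars they differed in direction in replicates 1 and 3, and in replicate 2 both were below Ha. No test was run on the ratios: those with ssc-miR-365-3p rest on the values that chose it, and for the others an exact permutation test of 3 libraries against 3 cannot go below 0.10. Without Hb replicate 2 the difference in HZ boars was -3.07.

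The located neighbours are MIR365-2 and MIR193A, although ssc-miR-365-3p can also come from MIR365-1. Ratios to the miR-193a entries were added after the other ratios had been seen. ssc-miR-365-3p had 84.7, 58.5 and 106.7 counts for each count of ssc-miR-193a-3p in Ha replicates 1, 2 and 3, and 18.1, 1.07 and 5.0 in Hb. In LC boars this ratio was 58.1, 32.9 and 34.2 in La and 50.4, 59.2 and 54.1 in Lb. It was lower in each Hb library than in any other library, and La and Lb overlapped. At 30 days each La library lay below each Ha library, with a log2 difference of -1.0, whereas the ratio to miR-193-y overlapped. The log2 ratio differed with age by -4.13 in HZ boars, or -3.08 without Hb replicate 2, and by 0.44 in LC boars. For ssc-miR-193a-5p the log2 ratio differed by -3.78 in HZ boars, or -2.68 without Hb replicate 2. In LC boars it differed by 1.32, without overlap, and at 30 days La lay below Ha by a log2 difference of -1.31, also without overlap.

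**Figure D3:**
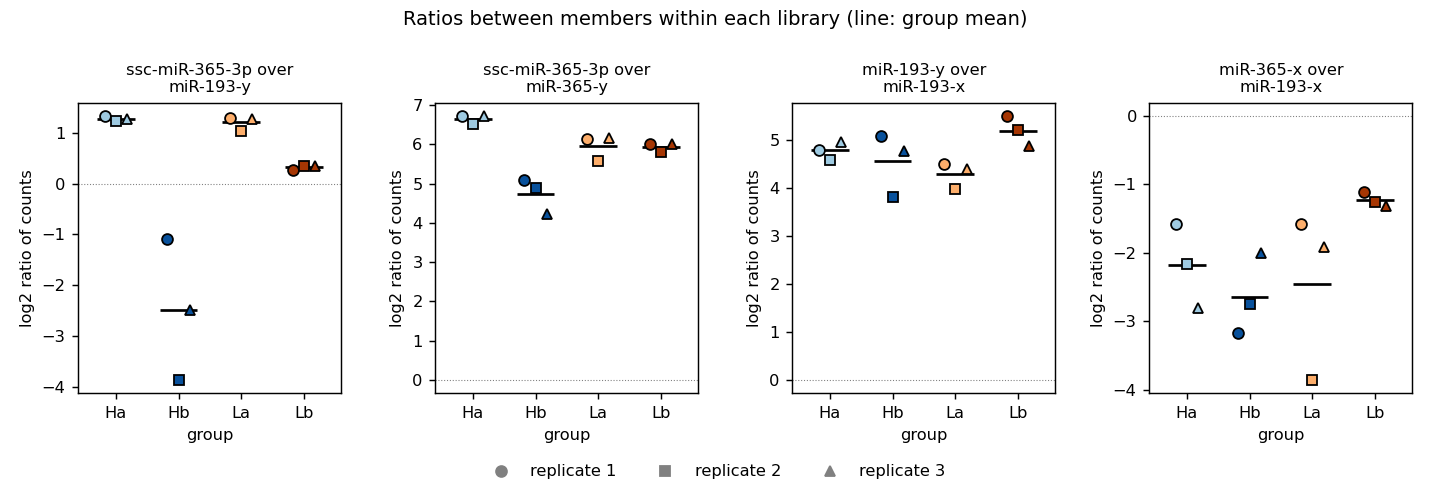
Log2 ratio of counts (y axis) between pairs of members in each library by group (x axis), with a marker for each library and a line at the group mean. ssc-miR-365-3p over miR-193-y lies between 1.04 and 1.33 in the libraries at 30 days, between 0.27 and 0.35 in Lb and between -3.87 and -1.09 in Hb.

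Within miR-365, ssc-miR-365-3p was also low in Hb relative to other entries of the family. Its log2 ratio to miR-365-y, which differs from it only at the 3' end, was 6.66 ± 0.112 (SD, n = 3) in Ha and 4.74 ± 0.46 in Hb. In LC boars it was 5.95 ± 0.337 in La and 5.94 ± 0.119 in Lb. Each Hb library lay below each library of the other groups. Its log2 ratio to miR-365-x was 8.24 ± 0.702 in Ha and 4.72 ± 2.27 in Hb, without overlap. In LC boars that ratio was 7.95 ± 0.809 in La and 6.74 ± 0.178 in Lb, also without overlap, and Hb and Lb overlapped. The difference of -1.21 between La and Lb was -0.74 without La replicate 2. Few counts stand behind both ratios in Hb, where miR-365-y held 48, 2 and 25 counts.

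Within miR-193 the printed ratios overlapped between the ages in HZ boars and differed in LC boars. The log2 ratio of miR-193-y to miR-193-x was 4.78 ± 0.187 in Ha and 4.56 ± 0.664 in Hb, and 4.29 ± 0.282 in La and 5.19 ± 0.311 in Lb, so that it was higher in each Lb than in each La library and overlapped between Ha and Hb. That of ssc-miR-193a-3p to ssc-miR-193a-5p was -2.74 ± 0.249 in Ha and -2.39 ± 0.54 in Hb, and -3.04 ± 0.26 in La and -2.17 ± 0.268 in Lb, with the same pattern of overlap. For miR-193-y to ssc-miR-193a-3p the difference with age was -0.37 in HZ boars, with overlap, and 1.32 in LC boars, without. Between the 5p entries of the different families, the log2 ratio of miR-365-x to miR-193-x was -2.19 ± 0.611 in Ha and -2.64 ± 0.589 in Hb, and -2.45 ± 1.23 in La and -1.23 ± 0.107 in Lb. The difference of 1.22 between La and Lb was 0.52 without La replicate 2, in which miR-365-x held 4 counts.

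The breed difference at 120 days was largest for ssc-miR-365-3p, with a log2 fold change of 2.57 (standard error 0.639). The value was 2.06 without Hb replicate 2 and 3.76 without Hb replicate 1. Its lowest Lb library, at 467.5 TPM, lay above its highest Hb library, at 223.7 TPM. For miR-365-y the difference was 1.44 and for miR-365-x it was 1.17, and in both each Lb library lay above each Hb library. For miR-365-y the value was 0.96 without Hb replicate 2 and 2.12 without Hb replicate 1, and for miR-365-x it was 0.87 when Hb replicate 1 was left out and 1.65 when Hb replicate 3 was. For ssc-miR-365-5p it was 0.93, Hb and Lb overlapped, and the value ran from 0.46 to 2.92 when each library was left out, the ends being without Hb replicates 2 and 1. The miR-193 entries lay closer to 0, at 0.4 for miR-193-y, -0.19 for miR-193-x, -0.28 for ssc-miR-193a-3p and -0.58 for ssc-miR-193a-5p, and in all 4 of them Hb and Lb overlapped. When each library was left out, these values ran from 0.16 to 0.59, -0.26 to -0.12, -0.53 to -0.17 and -0.73 to -0.44, in the same order. By the thresholds, 3 members, all of miR-365, were called higher in Lb, where 16.8% of all miRNAs were called. In the same 3 members the Lb libraries all lay above the Hb libraries, beside 18.6% of all miRNAs. This comparison was used to choose the set, and nothing is read from these counts.

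In Hb, the order of the libraries for ssc-miR-365-3p was replicate 1, then 3, then 2, and of the 8 marker lists the sums of the epithelial and gonad lists had the same order while the other 6 did not. The 12 entries of miR-200, miR-141, miR-429 and miR-205, of which 7 were counted in all libraries, summed to 267.5, 60.8 and 119.1 TPM in Hb replicates 1, 2 and 3, to 213.6 to 242.1 TPM in Ha, 159.6 to 233.0 TPM in La and 163.2 to 395.9 TPM in Lb. Not all members of the epithelial list had this order. miR-200-y held 134.6, 19.1 and 47.0 TPM and ssc-miR-200b 76.1, 5.23 and 13.1 TPM, whereas ssc-miR-141 held 19.9, 22.5 and 16.9 TPM and ssc-miR-205 18.3, 8.18 and 30.2 TPM. The gonad list summed to 17266.4, 9608.4 and 16387.3 TPM in these libraries, mostly from ssc-miR-202-5p, while ssc-miR-202-3p held 610.1, 497.9 and 702.1 TPM and was highest in replicate 3. The germ cell list summed to 7356.1, 3004.4 and 14793.7 TPM in the same Hb libraries. The part of these cell types, and of the library itself, in the level of ssc-miR-365-3p was not tested.

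Among the 434 other miRNAs averaging 10 TPM or more, those with the pattern nearest to ssc-miR-365-3p over the 12 libraries were ssc-miR-1306-5p, miR-484-x, miR-494-y, miR-221-y and miR-409-y. The root mean square difference of log2(TPM + 1), each centred on its own mean, was 0.72 to 0.8, against a spread of 1.66 of ssc-miR-365-3p about its own mean. All 5 were lowest in Hb replicate 2 and next lowest in Hb replicate 3. In Hb replicates 1, 2 and 3, miR-484-x held 183.9, 20.3 and 77.9 TPM, against 241.9 TPM or more in each library of the other groups. miR-221-y held 84.3, 4.58 and 8.5 TPM. Since they were picked for their likeness to ssc-miR-365-3p, low values in these Hb libraries follow from the choice.

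The patterns nearest to miR-193-y were those of miR-20-x, ssc-miR-129a-5p, ssc-miR-129b, ssc-miR-345-5p and miR-18-x, with differences of 0.25 to 0.32 against a spread of 0.89. ssc-miR-129a-5p and ssc-miR-129b list the same values. For miR-20-x, an entry of a cell-cycle-linked family, the Hb libraries held 155.8, 31.8 and 169.1 TPM and the Lb libraries 194.2, 171.2 and 153.0 TPM. The distances of the other members to miR-193-y are given for comparison, although 5 of them average under 10 TPM, where the added 1 compresses their movement. Of the miR-193 entries, miR-193-x differed from it by 0.49, ssc-miR-193a-3p by 0.6 and ssc-miR-193a-5p by 0.86. Of the miR-365 entries, miR-365-x differed by 0.52, ssc-miR-365-5p by 0.66, miR-365-y by 0.7 and ssc-miR-365-3p by 1.6. Among the members the closest pair was miR-193-x and ssc-miR-193a-3p, at 0.25.

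**Figure D4:**
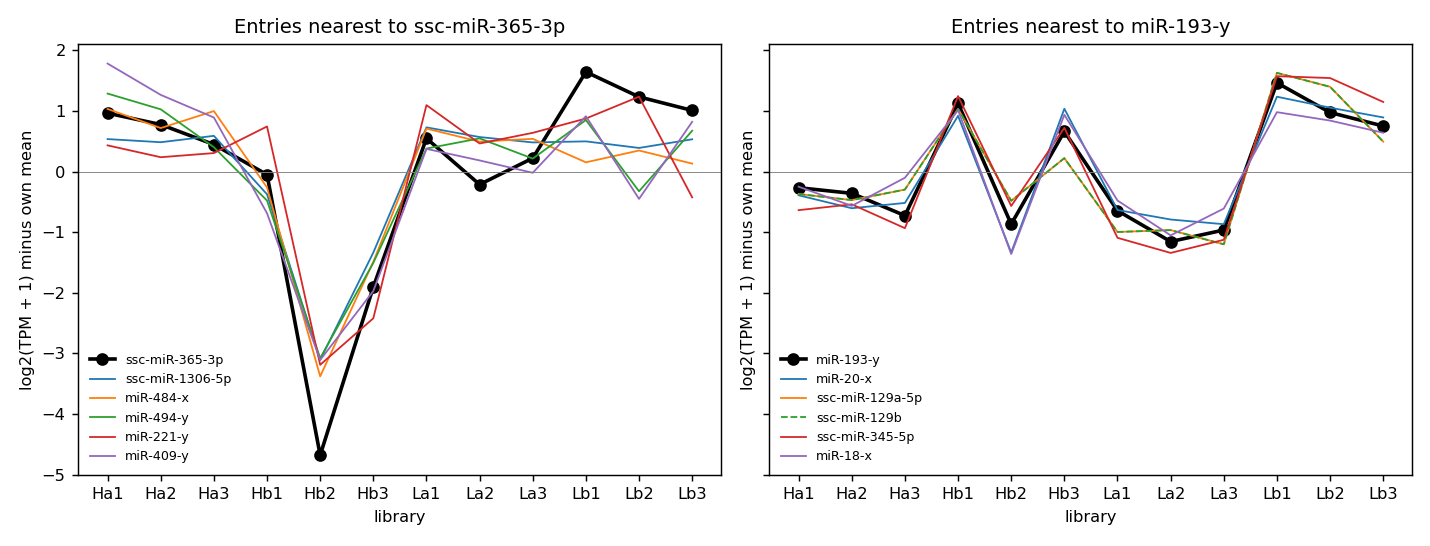
Log2(TPM + 1) minus the mean over the 12 libraries (y axis) in each library (x axis) for ssc-miR-365-3p and miR-193-y (black) and the 5 entries nearest to each (coloured; ssc-miR-129a-5p and ssc-miR-129b coincide). The left panel has its minimum at Hb replicate 2 for all 6 entries, and in the right panel each library at 120 days other than Hb replicate 2 lies above the libraries of its breed at 30 days.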

How the data were processed

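The authors filtered reads with fastp, removed tags of other non-coding RNAs and of exons, introns and repeats of Sscrofa11.1, and matched the rest to miRBase with bowtie. They deposited raw tag counts of each miRNA in each library and TPM, in which the authors divided each count by a library total and wrote a count of 0 as 0.01. That value was read as 0 here.

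Counts were tested with edgeR 4.0.16 in R 4.3.3 (glmQLFit and glmQLFTest, TMM) in a separate fit for each comparison of 6 libraries, over all miRNAs with at least 1 count in them, with Benjamini-Hochberg adjustment over all of them. Calls followed the thresholds of the study, a log2 fold past 1 in either direction with p under 0.05 before adjustment. The fits were tested on simulated data. Libraries of a group differed beyond counting noise, with a chi-square of 49.45 or more for each degree of freedom. It was 417.9 to 1178 between the Hb libraries and at most 242.6 within the other groups. The members named are all entries found by the rule. The nearest patterns were the 5 with the smallest root mean square difference among miRNAs averaging 10 TPM or more. Alternatives were RLE normalization, library size alone, DESeq2 1.42.0, filterByExpr, 1 fit of all libraries, the replicate number as a block, near-identical entries summed and each library left out. The members and lists were chosen with earlier results of these data known. The table of predicted miRNAs was not used. Marker lists were summed as TPM; those for blood, muscle and vessels are in the closing section.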

Additional observations from a re-analysis of the deposited data

Results flagged for a closer look

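ssc-miR-365-3p moved in opposite directions with age in the 2 breeds: each Hb library lay below each Ha library and each Lb library above each La library. The age effect in LC boars exceeded that in HZ boars by 2.99 on the log2 scale. This difference is given as a description and was not tested on independent libraries, because the Hb and Lb values chose the miRNA. ssc-miR-365-3p is 1 of the 2 members counted in the interaction by the unadjusted p, and nothing is read from this count. With the adjusted p, 0 of the 8 members were counted. The value of 2.99 was 2.55 without Hb replicate 2 and 4.21 without Hb replicate 1.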

How the results depend on the processing

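The number of members called moved most in La vs. Lb with scaling by library size, from 2 to 6, where 493 of all 1446 miRNAs were called beside 464 with TMM. This scaling moved the median log2 fold change of all miRNAs from 0.32 to 0.54 there and from 0.06 to 0.32 in Hb vs. Lb. When a library was left out, the number ranged from 1 to 5 in Ha vs. Hb (1 without Ha replicate 3, 5 without Ha replicate 2), from 2 to 5 in La vs. Lb (5 without La replicate 1 or Lb replicate 3), from 0 to 1 in Ha vs. La (1 without Ha replicate 2), from 1 to 3 in Hb vs. Lb (1 without Lb replicate 1) and from 2 to 4 in the interaction (4 without Hb replicate 1). Of 542 single log2 fold changes under an alternative, 493 kept their direction and side of the threshold and 16 changed sign, none of them a called one. With library size alone these were miR-193-x (-0.03 in Ha vs. La, 0.11 in Hb vs. Lb and 0.14 in the interaction), ssc-miR-193a-3p in Hb vs. Lb (0.02) and ssc-miR-365-5p in the interaction (0.22). When a library was left out they were miR-193-x (-0.12 to 0.21) and miR-365-x (-0.44 to 0.34) in Ha vs. La, miR-365-y (-0.89 to 0.24, the latter without Hb replicate 2) and ssc-miR-365-5p (-1.1 to 1.36) in Ha vs. Hb, and ssc-miR-365-5p in the interaction (-0.46 to 2.03, the latter without Hb replicate 1). The cause was not tested. The log2 ratio of ssc-miR-365-3p to miR-193-y differed between Hb and Lb by 2.11 to 3.51 and between La and Lb by -0.96 to -0.84 across the libraries left out.

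The replicate numbers were not shown to pair the libraries, since the deviations of same-numbered libraries correlated between -0.139 and 0.118 over 791 miRNAs. With the replicate block the number of members called was 3 (HZ age), 2 (LC age), 0 (breeds at 30 days), 3 (breeds at 120 days) and 2 (interaction), as without it, and the sign of ssc-miR-365-5p in the interaction changed (0.17). Few counts stand behind ssc-miR-365-5p, with at most 24 in a library. In HZ boars miR-365-x held at most 24 counts and miR-365-y at most 48. The part of depth in their differences was not tested.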

Other observations

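The remaining marker lists give the cell content of the libraries as far as miRNAs show it. The 9 entries of miR-143 and miR-145, abundant in smooth muscle and peritubular cells, summed to 20687.4 to 36347.3 TPM at 30 days and to 55595.9 to 92499.6 TPM at 120 days. The 11 entries of miR-1, miR-133 and miR-206, known from striated muscle, summed to 108.9 to 284.7 TPM at 30 days and to 453.1 to 846.0 TPM at 120 days. The 10 erythroid entries lay between 863.2 and 2467.6 TPM, the 9 leukocyte entries between 416.9 and 1441.2 TPM and the 4 entries of miR-126, an endothelial miRNA, between 8701.0 and 15839.1 TPM. Their part in the levels of miR-193 and miR-365 was not tested.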
